A study of Mus with 3 samples.

Results

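Effector T cell transcription factors are described here from single-cell RNA and TCR sequencing of MC38 tumors. The 10 members are Tbx21, Eomes, Prdm1, Zeb2, Id2, Irf4, Irf8, Batf, Bhlhe40 and Zbtb32, out of 32285 genes in the deposited table. They were taken as a list of names, with no cut on measured values. Earlier results of these data were known when the list was chosen. The tumors, of the MC38 mouse colon adenocarcinoma line, were taken on day 16 after injection from WT mice, from RARα-KO mice and from RARα-TG mice. RARα-KO stands for dLck-Cre×Rara L/L, where the distal Lck promoter drives Cre in T cells and Cre removes part of the floxed Rara gene, which encodes the retinoic acid receptor alpha. RARα-TG stands for CD2-Rara, with Rara driven by CD2 sequences in T cells. For each genotype, 30000 T cells sorted as CD45.2+ CD3+ were mixed with 10000 cells of the whole tumor suspension and given an antibody hashtag of their own, and the 3 mixtures were run together as 1 10x Genomics 5′ library. Each genotype is therefore 1 sample, and no value below has a replicate or a test. The strain is labelled C57BL/6. The number of mice, and which of the study's control strains was used as WT, were not given in the sources used here, and an age in weeks was given for most of the study's experiments as a range, not for this one by name. The labels further speak of spleen and of naive CD8 T cells stimulated in culture, in conflict with their own tumor protocol. T cells with CD8, T cells with CD4 and tumor cells were all found, and the tumor protocol was followed.

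These factors set how an activated T cell turns into an effector cell. Signals of the T cell receptor (TCR) induce BATF and IRF4, which bind DNA together at joint sites and open the effector genes. T-bet, the product of Tbx21, then drives the program of cytotoxicity and interferon gamma together with EOMES, ZEB2, BLIMP-1 and ID2, against factors of naive and memory cells such as TCF-1. The readouts named beside them were Gzmb, which encodes the protease granzyme B of cytotoxic granules, and Ifng, which encodes interferon gamma.

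The genes lie at these places in GRCm38.p6 (RefSeq), the assembly behind mm10, and each UMI was counted for the gene as a whole. The T-box factors are Tbx21 (ENSMUSG00000001444, chromosome 11, 97098007 to 97115331) and Eomes (ENSMUSG00000032446, chromosome 9, 118478186 to 118486132). The zinc finger repressors are Prdm1, which encodes BLIMP-1 (ENSMUSG00000038151, chromosome 10, 44437174 to 44528558), Zeb2, a partner of T-bet in late effector cells (ENSMUSG00000026872, chromosome 2, 44983512 to 45117442), and Zbtb32, which limits T cell expansion and cytokine output (ENSMUSG00000006310, chromosome 7, 30589680 to 30602819). The factors induced by the TCR are Irf4 (ENSMUSG00000021356, chromosome 13, 30749233 to 30766981) and Batf, an AP-1 factor that pairs with JUN proteins (ENSMUSG00000034266, chromosome 12, 85686720 to 85709087). Irf8, a relative of Irf4 best known from dendritic cells, lies at ENSMUSG00000041515, chromosome 8, 120736358 to 120756694. The helix-loop-helix members are Id2, which blocks E proteins (ENSMUSG00000020644, chromosome 12, 25093799 to 25096092), and Bhlhe40, a repressor that keeps up cytokine output (ENSMUSG00000030103, chromosome 6, 108660629 to 108666925).

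After removal of hashtag doublets, 1927 WT, 2103 RARα-KO and 895 RARα-TG cells remained. Within the T cell clusters, cells with Cd8a and without Cd4 UMIs were taken as CTLs, and cells with Cd4 and without Cd8a and Cd8b1 UMIs as CD4 T cells. This gave 841 WT, 1181 RARα-KO and 113 RARα-TG CTLs with 5609569, 8115491 and 602657 UMIs, so RARα-TG values of CTLs rest on the fewest counts. Levels are CPM, the summed UMIs of a gene scaled to 1000000 UMIs of the same cells. Square brackets after a log2 ratio of CPM hold its 95% interval, which covers counting error only. A member is called higher or lower where the ratio is 1.5-fold or more (0.58 on the log2 scale), a call of size and not of a test, and a gene was counted as tested where the average of both groups' mean UMIs per cell was above 0.1 (for splits of CTLs by Ifng or Gzmb, the mean over all CTLs of the genotype). Outside those splits, a gene under 0.1 UMIs per cell in 1 group passed only through the other, so that the filter left it 1 direction. Rara itself was at 85.4 (WT), 78.6 (RARα-KO) and 191 CPM (RARα-TG) in CTLs, and a tag at the 5′ end of the transcript does not check a deletion further inside the gene. All 10 T cell markers were found in the CTLs of each genotype.

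In CTLs, RARα-KO was compared with WT to ask which effector regulators differed when Rara was deleted in T cells. Prdm1, Eomes, Zbtb32 and Irf4 were higher in RARα-KO and Irf8 was lower, while Tbx21, Zeb2 and Bhlhe40 were at nearly the same level. Prdm1 stood at 10.2 CPM (WT, 57 UMIs), 38.0 CPM (RARα-KO, 308 UMIs) and 4.98 CPM (RARα-TG, 3 UMIs), a log2 ratio of RARα-KO to WT of 1.90 [1.49 to 2.34]. Zbtb32 stood at 39.4 CPM (WT, 221 UMIs), 108 CPM (RARα-KO, 880 UMIs) and 4.98 CPM (RARα-TG, 3 UMIs), a log2 ratio of RARα-KO to WT of 1.46 [1.25 to 1.68]. The order of the genotypes was the same for both genes, with RARα-KO at the top and RARα-TG at the bottom, although the intervals of WT and RARα-TG overlapped for Prdm1. Eomes stood at 12.5 CPM (WT, 70 UMIs), 33.8 CPM (RARα-KO, 274 UMIs) and 26.5 CPM (RARα-TG, 16 UMIs), and here WT was the lowest (log2 ratio of RARα-KO to WT 1.44 [1.05 to 1.84]). Irf4 stood at 38.3 CPM (WT, 215 UMIs), 78.1 CPM (RARα-KO, 634 UMIs) and 18.3 CPM (RARα-TG, 11 UMIs), a log2 ratio of RARα-KO to WT of 1.03 [0.80 to 1.26].

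Irf8 went the other way, at 356 CPM (WT, 1996 UMIs), 208 CPM (RARα-KO, 1685 UMIs) and 73.0 CPM (RARα-TG, 44 UMIs), so that WT CTLs had the most (log2 ratio of RARα-KO to WT -0.78 [-0.87 to -0.68]). Of the 10 members, all of which passed the filter on low values, 4 were 1.5-fold or more higher and 1 was 1.5-fold or more lower in RARα-KO. Prdm1 and Eomes were under 0.1 UMIs per cell in WT and passed through their level in RARα-KO, so that they had to be higher to be counted. Without them 2 of 8 members were higher (Irf4 and Zbtb32) and 1 was lower. Over the 6319 genes tested these shares were 3.61% and 2.18%. The intervals of all 5 lay wholly past 1.5-fold. The median log2 ratio was 0.46 over the members and 0.02 over all genes tested. Batf (0.50 [0.35 to 0.64]) and Id2 (0.41 [0.34 to 0.48]) were higher by less than 1.5-fold. Tbx21, at 116 CPM in WT and 103 CPM in RARα-KO, had a log2 ratio of -0.17 [-0.32 to -0.02], that of Zeb2 was -0.01 [-0.19 to 0.18] and that of Bhlhe40 was -0.14 [-0.20 to -0.07]. The readouts were higher in RARα-KO, Gzmb by a log2 ratio of 1.17 [1.14 to 1.19] and Ifng by one of 1.76 [1.64 to 1.89]. Members of the same list thus stood higher, level and lower in the same cells in which both readouts were higher.

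**Figure D1:**
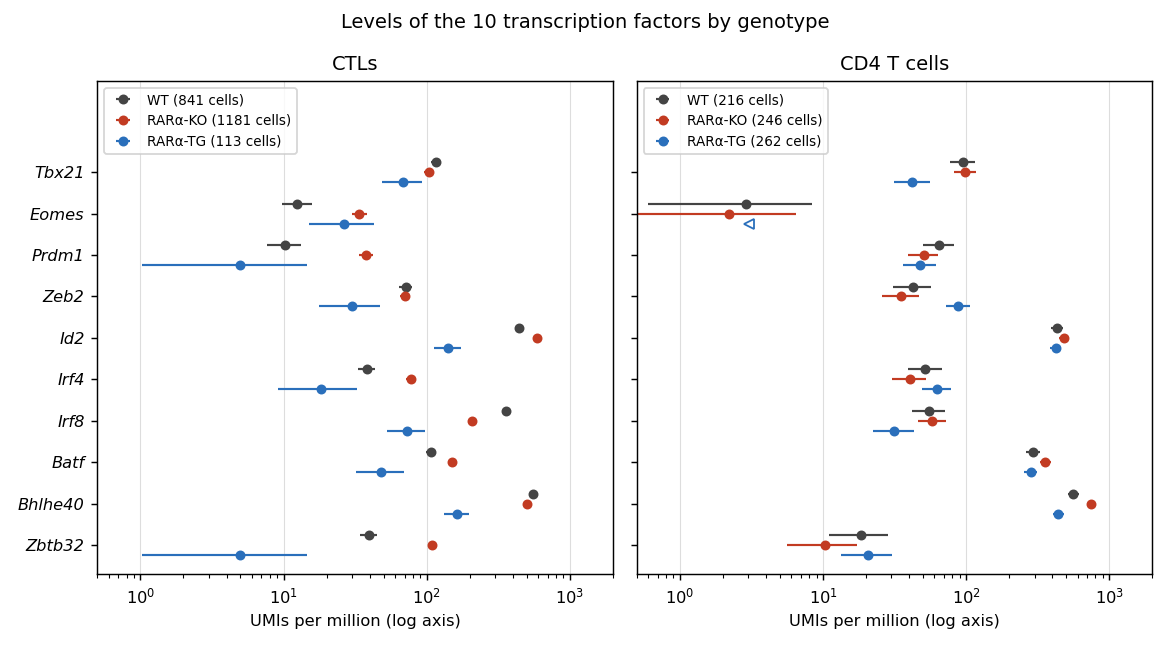
CPM (log axis) of the 10 transcription factors in CTLs (left) and CD4 T cells (right) of the 3 genotypes. Points are the summed UMIs of 1 sample per genotype and bars are 95% Poisson intervals for counting error; the open triangle is the upper limit for Eomes in RARα-TG CD4 T cells, which had 0 UMIs. In CTLs, RARα-TG is lowest for 9 of the 10 genes, and RARα-KO is highest for Eomes, Prdm1, Id2, Irf4, Batf and Zbtb32.

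The increase of Eomes in RARα-KO depended on how clonotypes were weighted. When every CTL clonotype counted equally, the log2 ratio of Eomes was 0.03, whereas Prdm1, Id2, Irf4 and Zbtb32 were past 1.5-fold higher and Irf8 past 1.5-fold lower. Under this weighting the log2 ratio of Tbx21 was 0.02. The cells themselves also differed in state. CTL cluster 5, led by the heat shock genes Hspa1b and Hspa1a, held 14.6% of RARα-KO and 0.832% of WT CTLs, and Hspa1a was at 38.1 (WT), 172 (RARα-KO) and 174 CPM (RARα-TG). Egr1, an early gene of TCR signals, was at 62.0, 187 and 34.8 CPM in the same order. The part of either in the result was not tested. Without the heat shock cluster the counts past 1.5-fold were the same, 4 higher and 1 lower. Markers of other cells were low in the CTLs of all 3 genotypes. The 12 myeloid markers summed to between 18.3 and 26.7 CPM over the genotypes, with S100a8, S100a9 and Fcgr1 at 0 in all 3, and the 10 markers of MC38 or stromal cells to between 18.7 and 26.5 CPM. The 10 dendritic cell markers summed to between 163 and 341 CPM, nearly all of it Ccr7 in WT and RARα-KO, which T cells also express, with Clec9a, Cd209a and Siglech at 0 in all 3. Without cells that held a UMI of these markers (Ccr7, Apoe, H2-Aa, Cd68 and Sparc aside), the counts of members past 1.5-fold were again 4 higher and 1 lower.

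RARα-TG CTLs were compared with the same WT CTLs, so both comparisons share their control. Almost all members were lower in RARα-TG. Irf8 had 356 CPM in WT and 73.0 CPM in RARα-TG (-2.28 [-2.75 to -1.85]), Bhlhe40 had 550.5 and 163 CPM (-1.76 [-2.06 to -1.47]), and Id2 had 439 and 141 CPM (-1.64 [-1.97 to -1.33]). These 3 genes had the most UMIs of the members in WT CTLs. In RARα-TG they rested on 44 (Irf8), 98 (Bhlhe40) and 85 UMIs (Id2), and those of Irf8 came from 14 of 113 cells. Batf had 107 CPM in WT and 48.1 CPM in RARα-TG (-1.15 [-1.74 to -0.62]), Zeb2 had 71.1 and 29.9 CPM (-1.25 [-2.02 to -0.57]), and Tbx21 had 116 and 68.0 CPM (-0.77 [-1.27 to -0.32]). Irf4, on 11 UMIs in RARα-TG, had a log2 ratio of -1.07 [-2.09 to -0.20], and Zbtb32, on 3 UMIs, one of -2.98 [-5.27 to -1.42]. Eomes was the exception, higher in RARα-TG on 16 UMIs (1.09 [0.21 to 1.89]). Prdm1, with 3 UMIs, did not pass the filter on low values (-1.03 [-3.35 to 0.59]).

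Of the 9 members that passed the filter in this comparison, 8 were 1.5-fold or more lower and 1 was higher in RARα-TG. Zbtb32 and Irf4, under 0.1 UMIs per cell in RARα-TG, passed through their level in WT, and Eomes, under it in WT, passed through its level in RARα-TG, so that the filter left these 3 no other direction. The other 6 members were all lower. Over the 6029 genes tested 11.3% were lower and 11.6% higher by as much. The intervals of 5 members, Id2, Irf8, Batf, Bhlhe40 and Zbtb32, lay wholly past 1.5-fold. Batf was within 1.5-fold when cells with a Cd8b1 UMI were counted as CTLs as well (-0.35), and so was Zeb2 with cells thinned to 1000 UMIs (-0.15). The median log2 ratio was -1.25 over the 9 members and 0.03 over all genes tested. The excess of Eomes turned to a log2 ratio of -0.48 when clonotypes counted equally. RARα-TG CTLs were also of another kind than WT CTLs. Of them, 65.5% fell into CTL cluster 9, led by Klra7, Tyrobp and Fcer1g, against 2.38% of WT CTLs. The 7 markers of NK cells other than Eomes summed to 611 CPM in RARα-TG, 223 in WT and 121 in RARα-KO CTLs. Of the sum in RARα-TG, 372 CPM was Fcer1g, itself a leading gene of cluster 9. Klra8 was at 0 in all 3 genotypes and Ncr1 in WT and RARα-KO. Klra4 was at 0 in RARα-TG and was found in WT and RARα-KO. The part of these cells in the result was not tested.

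Members differed over the states of CTLs. CTLs were clustered without the 10 members, Gzmb, Ifng and TCR segment genes, and the clusters are called by number and leading genes. Cluster 1 (Ecm1, Serpine2 and Prf1) had the highest Gzmb, at 10030.0 CPM, and also the highest Zbtb32 (179 CPM), Prdm1 (58.8 CPM) and Id2 (788 CPM) of the 12 clusters. Cluster 2 (Ccl1, Xcl1, Crtam and Ccl3) had the highest Zeb2 (171 CPM), with Irf4 at 154 CPM, Batf at 237 CPM and Ifng at 949 CPM. Cluster 12 (Il21) was higher still for Irf4 (248 CPM), Batf (451 CPM), Bhlhe40 (1259.9 CPM), Tbx21 (280.0 CPM) and Ifng (1662 CPM), but it held 17 cells, all of RARα-KO, with a median of 17018 UMIs. Granzyme B and interferon gamma were thus highest in different clusters, and different members stood highest in each. Irf8 was highest in cluster 6 (Penk, Ccr8 and Ccr7; 543 CPM) and in cluster 4 (Gzmg, Gzmf, Gzmd and Gzme; 447 CPM), which were mostly WT cells. It was at 26.1 CPM in cluster 3 (S1pr1, Tcf7 and Cxcr3), where Batf (195 CPM), Irf4 (73.2 CPM) and Tbx21 (110.2 CPM) were near or above their levels in all CTLs, while Zbtb32 (5.89 CPM) and Zeb2 (31.1 CPM) were low.

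Cluster 11 (Igfbp4, Tcf7 and Klf3), with factors of resting T cells among its leading genes, had 32.6 CPM of Gzmb and the lowest level of 9 of the 10 members, such as 53.0 CPM of Id2 and 44.8 CPM of Bhlhe40, and no UMI of Zbtb32. Eomes was not low there, at 28.5 CPM against 25.1 CPM in all CTLs. In cluster 9, which held most RARα-TG CTLs, Eomes was at 39.7 CPM while Id2 (123 CPM), Irf8 (39.7 CPM) and Batf (41.7 CPM) were low. The heat shock cluster 5 had 6981 CPM of Gzmb and 119 CPM of Zbtb32 but 106 CPM of Irf8 and 59.6 CPM of Ifng. The interferon cluster 10 (Ifit3b, Ifit1 and Isg15) had the lowest Eomes of the clusters (5.04 CPM, on 2 UMIs), and Irf8, itself a gene that interferon induces, was at 108 CPM there. Clusters 1, 4, 5, 6, 8, 9 and 12 came mostly from 1 genotype, so that state and genotype cannot be told apart over the whole of the CTLs.

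**Figure D2:**
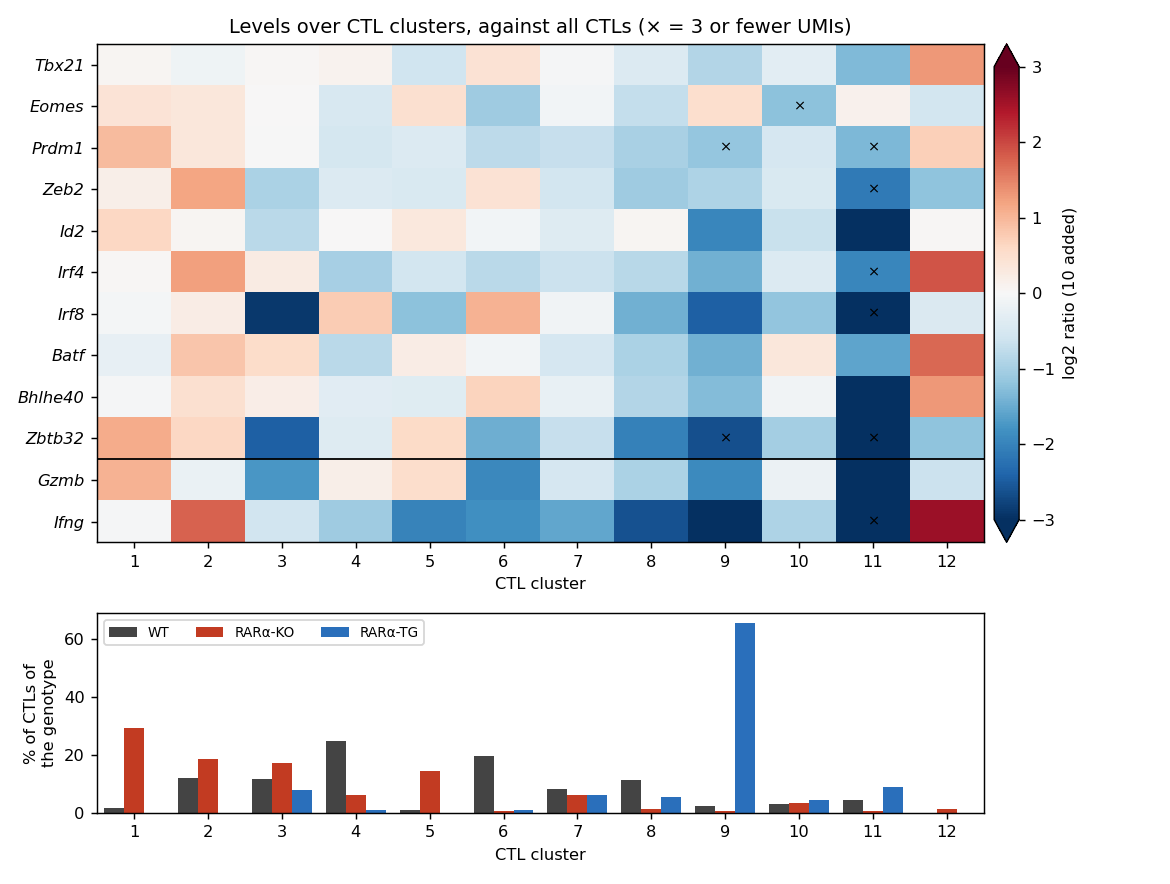
Upper panel: levels in the 12 CTL clusters against all CTLs, as log2 ratios of CPM with 10 added (colours end at -3 and 3; a cross marks 3 or fewer UMIs). Lower panel: percentage of the CTLs of each genotype in each cluster. Cluster 11 is low for 9 of the 10 members, Irf8 is high in clusters 4 and 6, and Zbtb32 and Gzmb are high in cluster 1; clusters 1 and 5 are mostly RARα-KO, 4 and 6 mostly WT, and 9 mostly RARα-TG.

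Genotypes were then compared inside the 4 clusters that had 50 or more WT and RARα-KO cells. In cluster 2, the same 4 genes as in all CTLs were past 1.5-fold higher in RARα-KO (Eomes, Prdm1, Irf4 and Zbtb32; 7.80% of genes tested), and none was lower (11.1%). Eomes stood there at 13.1 CPM in WT and 42.6 CPM in RARα-KO (1.70 [0.57 to 3.08]), and Irf4 at 105 and 174 CPM (0.73 [0.30 to 1.17]). In the dividing cells of cluster 7 (Rrm2 and Pclaf), Eomes (2.52 [1.27 to 4.05]), Irf4 (1.33 [0.55 to 2.17]) and Prdm1 (0.91 [-0.38 to 2.33], an interval that holds 0) were past 1.5-fold higher and Irf8 lower (-1.45 [-1.74 to -1.17]; 12.5% of genes tested were higher and 7.89% lower). Cluster 4 had Prdm1 (1.53 [0.53 to 2.56]), Eomes (0.99 [-0.02 to 1.99]) and Zbtb32 (0.68 [0.17 to 1.18]) past 1.5-fold higher but Irf4 (-0.97 [-2.06 to -0.02]) and Zeb2 (-0.70 [-1.395 to -0.06]) lower, against 7.71% and 11.6% of genes tested. In cluster 3 none of the 6 members that passed the filter was past 1.5-fold (9.58% and 8.34% of genes tested). Prdm1 and Eomes were thus past 1.5-fold in 3 of these 4 clusters, and both were under the filter on low values in cluster 3. Where WT cells of a cluster hold under 0.1 UMIs of such a gene, it has to be higher in RARα-KO to be counted. The 3 clusters are therefore no repeated support, and the intervals of Prdm1 in cluster 7 and of Eomes in cluster 4 held 0. The ratios of Irf4 and Irf8 had opposite signs between clusters, a difference that was not tested. Irf8 had a log2 ratio of 0.47 [0.19 to 0.77] in cluster 2 and -1.45 [-1.74 to -1.17] in cluster 7.

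**Figure D3:**
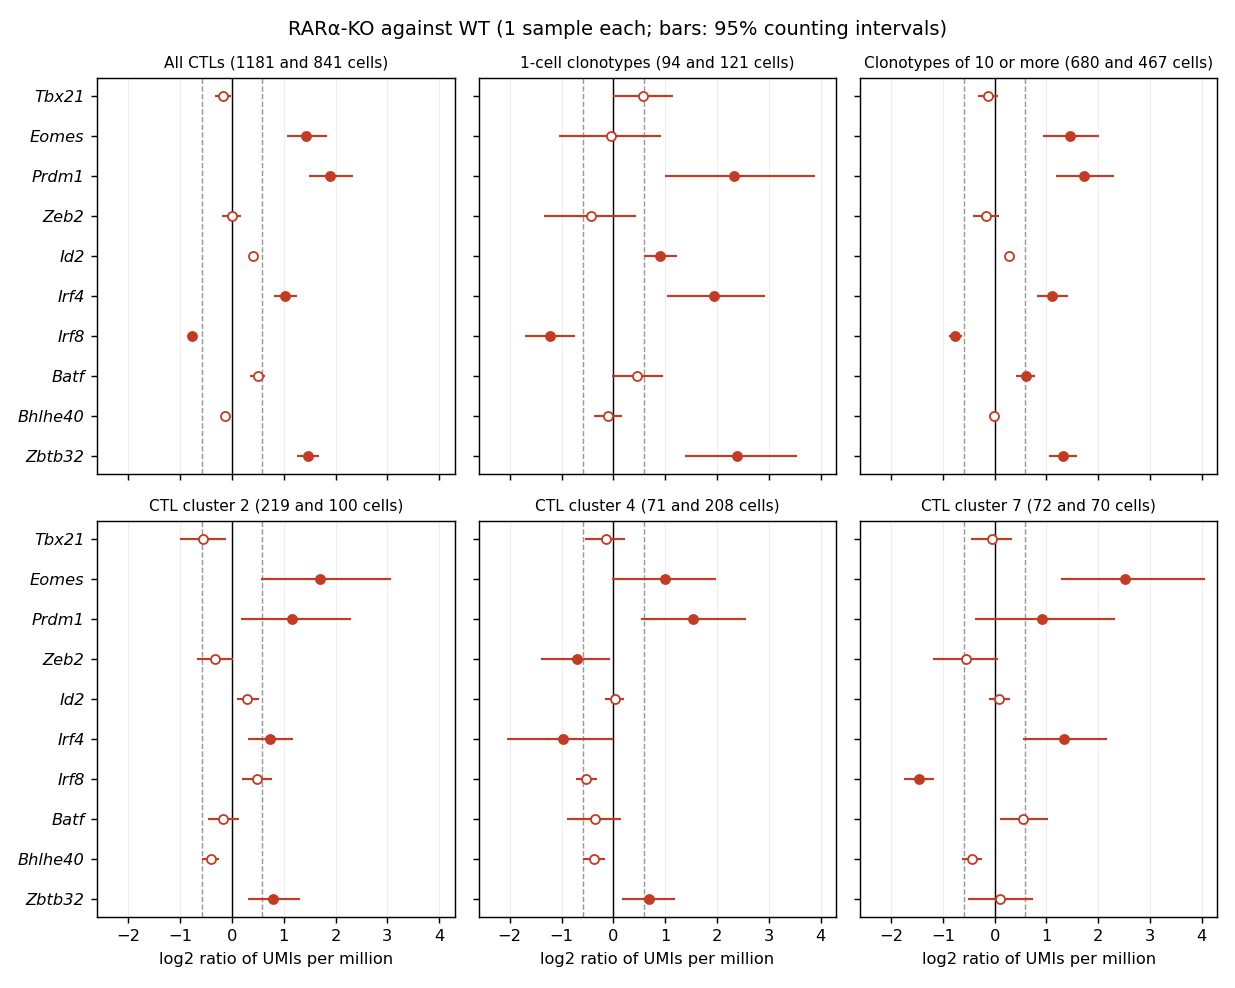
log2 ratios of CPM, RARα-KO against WT (1 sample each), for the 10 members in all CTLs, in CTLs of 1-cell clonotypes and of clonotypes of 10 or more cells, and within CTL clusters 2, 4 and 7; titles give the RARα-KO and WT cells. Bars are 95% counting intervals, dashed lines mark 1.5-fold, and filled points are past it. Prdm1, under 0.1 UMIs per cell in WT in the panels of all CTLs and of clonotype sizes, is past 1.5-fold higher in all 6 panels. Eomes is near 0 in 1-cell clonotypes, and Irf4 and Irf8 change direction between clusters.

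A clonotype is a set of T cells with the same TCR, and its size is a measure of expansion. Clonotypes were sized within a genotype over all T cells with a TCR. In WT, 467 CTLs of clonotypes of 10 or more cells were set against 121 CTLs of 1-cell clonotypes. Zbtb32 had 15.2 CPM in 1-cell and 44.5 CPM in large clonotypes (1.55 [0.63 to 2.64]), and Id2 had 212 and 497 CPM (1.23 [0.98 to 1.49]). Irf4 (0.94 [0.14 to 1.85]), Tbx21 (0.72 [0.29 to 1.18]), Irf8 (0.71 [0.47 to 0.97]) and Zeb2 (0.68 [0.15 to 1.26]) were also past 1.5-fold higher in large clonotypes. Eomes was the member that was lower, with 33.4 CPM in 1-cell and 12.1 CPM in large clonotypes (-1.46 [-2.25 to -0.64]). The 6 members higher and 1 lower, of 9 that passed the filter, stood beside 10.8% and 8.69% of all genes tested, and the median log2 ratio was 0.71 over the members and 0.03 over all genes. Zbtb32 was under 0.1 UMIs per cell in 1-cell clonotypes, and Eomes was so in large ones. Each passed through the other group, so that the filter left both no other direction. Gzmb was at 1294 CPM in 1-cell and 3425 CPM in large clonotypes.

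In RARα-KO, 680 CTLs of large clonotypes were set against 94 CTLs of 1-cell clonotypes. Irf8 (1.17 [0.76 to 1.61]), Zeb2 (0.94 [0.27 to 1.69]) and Id2 (0.60 [0.40 to 0.81]) were past 1.5-fold higher in large clonotypes and none was lower (5.41% and 10.1% of genes tested). Eomes had 32.2 CPM in 1-cell and 33.3 CPM in large clonotypes of RARα-KO (0.05 [-0.68 to 0.87]). In 1-cell clonotypes, RARα-KO against WT showed Zbtb32 (2.39 [1.37 to 3.55]), Prdm1 (2.32 [0.99 to 3.90]), Irf4 (1.94 [1.04 to 2.93]) and Id2 (0.91 [0.59 to 1.23]) past 1.5-fold higher and Irf8 lower (-1.22 [-1.70 to -0.75]), beside 16.5% and 8.03% of genes tested, while Eomes had -0.05 [-1.05 to 0.93]. In clonotypes of 10 or more cells, Eomes, Prdm1, Irf4, Batf and Zbtb32 were past 1.5-fold higher and Irf8 lower (4.58% and 2.94% of genes tested), with Eomes at 12.1 CPM in WT and 33.3 CPM in RARα-KO (1.46 [0.94 to 2.005]). In WT, Prdm1 and Zbtb32 were under 0.1 UMIs per cell in 1-cell clonotypes, and Prdm1 and Eomes were so in large ones. There they passed through RARα-KO and had to be higher to be counted. Eomes was higher in RARα-KO in expanded clonotypes, and whether the ratio there differed from that in 1-cell clonotypes was not tested. In 1-cell clonotypes of RARα-TG (81 CTLs) against WT, 6 of 8 members that passed the filter were lower, Eomes among them (-0.72 [-2.02 to 0.46]), and none was higher (11.8% and 12.5% of genes tested). Of the lower ones, Zeb2 was under 0.1 UMIs per cell in RARα-TG and passed through WT. RARα-TG had 13 CTLs of clonotypes of 2 or more cells, against which its 81 CTLs of 1-cell clonotypes gave 3 members higher in the repeated clonotypes (Eomes, Zeb2 and Batf) where 30.5% of genes tested were higher and 19.1% lower. In these 13 CTLs they rested on 3 (Eomes), 2 (Zeb2) and 4 UMIs (Batf). Zeb2 was under 0.1 UMIs per cell in 1-cell clonotypes and had to be higher to be counted.

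Levels were also read in single clonotypes of 15 or more CTLs, 14 in WT and 17 in RARα-KO, which are parts of 1 sample each and not replicates. Zbtb32 ran from 3.05 to 82.8 CPM with a median of 50.3 in WT, and from 35.1 to 228 CPM with a median of 99.1 in RARα-KO, and 13 of the 17 RARα-KO clonotypes were above the highest WT clonotype. Prdm1 ran from 0 to 37.2 CPM with a median of 6.71 in WT, and from 11.7 to 71.6 CPM with a median of 37.4 in RARα-KO. All 17 RARα-KO clonotypes were above the WT median of Prdm1, and 9 were above the highest WT clonotype, while 5 of the 14 WT clonotypes had no Prdm1 UMI. Irf4 ran from 7.06 to 85.2 CPM with a median of 34.4 in WT, and from 7.23 to 137 CPM with a median of 91.0 in RARα-KO, with 9 RARα-KO clonotypes above the highest WT clonotype. Eomes overlapped fully between the genotypes in range, as it ran from 0 to 53.1 CPM with a median of 8.04 in WT, and from 0 to 53.0 CPM with a median of 39.4 in RARα-KO. The 4 largest RARα-KO clonotypes, of 67 to 113 cells, lay between 39.4 and 53.0 CPM, and 16 of the 17 were above the WT median. Irf8 ran from 33.6 to 892 CPM with a median of 358 in WT, and from 119.6 to 462 CPM with a median of 228 in RARα-KO. The largest WT clonotype, of 64 cells, had the lowest Irf8 of all (33.6 CPM) and the lowest Zbtb32 of all (3.05 CPM), next to 420.1 and 56.2 CPM in the second, of 58 cells. Its Gzmb was 3638 CPM and that of the second was 3065 CPM. Tbx21, Zeb2 and Bhlhe40 had medians of 119, 68.3 and 500.4 CPM in WT and 110.2, 69.7 and 519 CPM in RARα-KO.

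**Figure D4:**
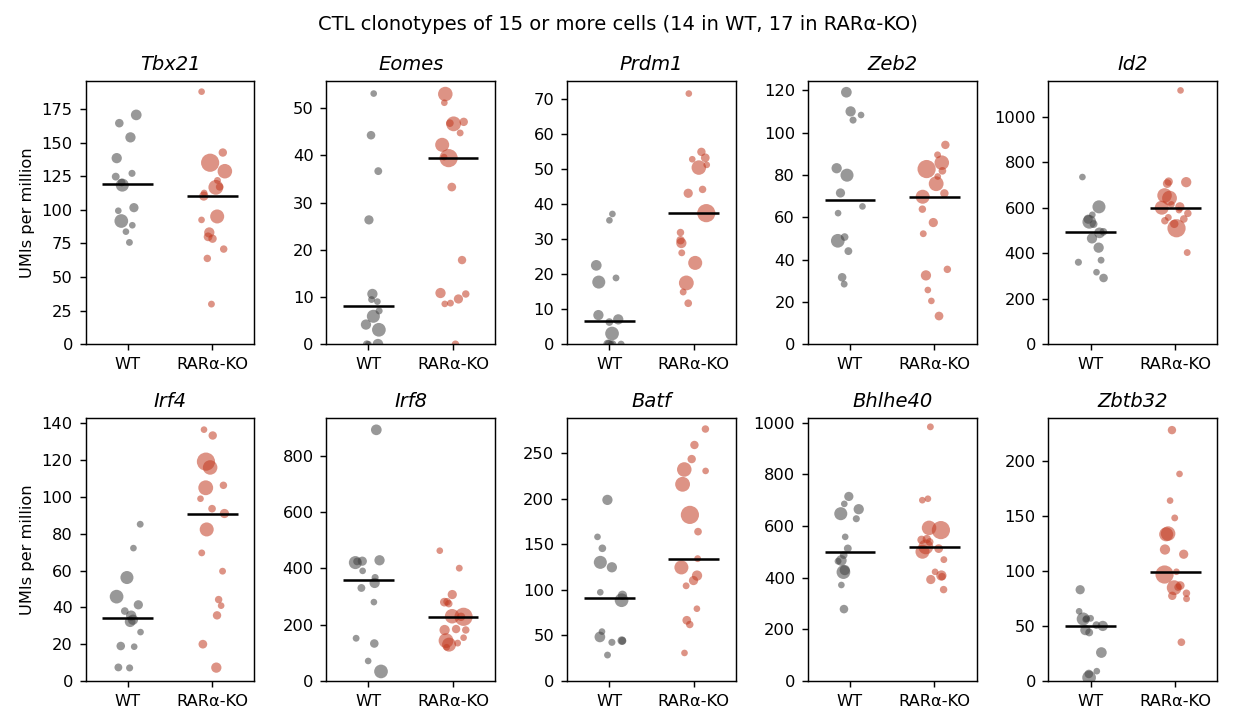
CPM (linear axes) of the 10 members in each CTL clonotype of 15 or more cells, WT (14) and RARα-KO (17). Points are clonotypes, their area grows with the number of cells, and lines are medians. For Zbtb32, 13 RARα-KO clonotypes lie above the highest WT clonotype, for Prdm1 and Irf4 9 do, and Tbx21, Zeb2 and Bhlhe40 overlap.

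In CD4 T cells (216 WT, 246 RARα-KO and 262 RARα-TG cells) the genotypes were compared in the same way. No member was past 1.5-fold between RARα-KO and WT among the 8 that passed the filter, where 4.77% of the 5813 genes tested were higher and 7.59% lower. Bhlhe40 was at 562 CPM in WT and 748 CPM in RARα-KO (0.41 [0.27 to 0.56]), and Batf at 294 and 358 CPM (0.28 [0.07 to 0.49]). Prdm1 had a log2 ratio of -0.35 [-0.86 to 0.16] and Irf4 one of -0.37 [-0.93 to 0.20], where both were past 1.5-fold higher in RARα-KO CTLs. Whether CTLs and CD4 T cells differed in these ratios was not tested. In RARα-TG CD4 T cells, Zeb2 was higher, at 87.6 CPM against 42.3 CPM in WT (1.05 [0.53 to 1.59]), Tbx21 was lower, at 42.2 against 95.2 CPM (-1.18 [-1.69 to -0.67]), and so was Irf8 (-0.80 [-1.44 to -0.19]). These 1 higher and 2 lower members stood beside 6.10% and 6.54% of genes tested. Id2, Irf4, Batf, Prdm1 and Bhlhe40, of which all that passed the filter in CTLs were lower there, were within 1.5-fold of WT in RARα-TG CD4 T cells.

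CD4 T cells were split by a UMI of Foxp3, the factor of regulatory T cells, and 55.6% (WT), 32.1% (RARα-KO) and 57.3% (RARα-TG) of them had one. In WT, Foxp3+ cells had more Prdm1 (85.1 against 36.4 CPM), Irf4 (65.1 against 34.1 CPM) and Batf (359 against 207 CPM), and less Bhlhe40 (199 against 1057 CPM) and Zeb2 (15.0 against 79.5 CPM). In this split, as in those by Ifng and Gzmb below, UMIs of the splitting gene were left out of the totals. Of all genes tested 15.1% were higher and 15.2% lower. In RARα-KO, Irf8 was higher and Zeb2, Id2 and Bhlhe40 were lower in Foxp3+ cells (16.8% and 13.3% of genes tested), and in RARα-TG, Prdm1, Irf8 and Batf were higher and Zeb2, Irf4 and Bhlhe40 lower (16.0% and 13.1%). The filter left no other direction to Zeb2 in WT and to Prdm1 and Irf8 in RARα-TG. Bhlhe40 and Zeb2 were lower in Foxp3+ cells of all 3 genotypes. The log2 ratio of Bhlhe40 between Foxp3+ and Foxp3- cells was -2.41 [-2.71 to -2.12] (WT), -1.86 [-2.13 to -1.60] (RARα-KO) and -1.94 [-2.22 to -1.66] (RARα-TG). Zeb2 was -2.40 [-3.65 to -1.32], -1.48 [-2.78 to -0.36] and -1.18 [-1.77 to -0.60] in the same order. The excess of Zeb2 in RARα-TG was found on both sides of the split, with log2 ratios to WT of 1.96 [0.91 to 3.19] with and 0.74 [0.12 to 1.38] without Foxp3, and so was the lack of Tbx21, with -1.16 [-1.81 to -0.52] and -1.23 [-2.12 to -0.39]. Of Irf4, by contrast, Foxp3- cells of RARα-TG had 90.5 CPM against 34.1 CPM in WT, and Foxp3+ cells had 44.9 against 65.0 CPM. In Foxp3- cells this was 43 UMIs in 14 of 112 RARα-TG cells, against 15 UMIs in 11 of 96 WT cells. The shares of cells with an Irf4 UMI were thus close, at 12.5% and 11.5%.

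Genotypes were compared on each side of the Foxp3 split. Between Foxp3+ cells of RARα-KO (79) and WT (120), Irf8 was higher, at 86.0 against 51.7 CPM, and Prdm1 (55.3 against 85.1 CPM), Id2 (211 against 362 CPM) and Irf4 (40.9 against 65.0 CPM) were lower, beside 9.47% and 10.1% of genes tested. The same 3 genes were lower in RARα-KO within CD4 cluster 1, the Foxp3-rich cluster with both genotypes above 50 cells (69 and 91), where Bhlhe40 was higher (11.0% and 13.2% of genes tested). Of its cells, 61 of 69 (RARα-KO) and 75 of 91 (WT) held a Foxp3 UMI and were thus in the comparison above, so that it is no repeated support. Prdm1 rested there on 16 against 43 UMIs and Irf4 on 15 against 26. That cluster was led by haemoglobin genes such as Hbb-bs, which mark red blood cell RNA. Among Foxp3- cells, Batf was higher in RARα-KO (0.75 [0.40 to 1.101]) and Zeb2 lower (-0.80 [-1.49 to -0.10]; 7.14% and 12.7% of genes tested). Prdm1 and Irf4, past 1.5-fold higher in RARα-KO CTLs, were thus past 1.5-fold lower in RARα-KO Foxp3+ CD4 T cells, a difference between cell types that was not tested. In Foxp3+ cells they rested on few UMIs, 27 against 51 in WT for Prdm1 and 20 against 39 for Irf4. The CPM intervals of RARα-KO and WT overlapped for both, so no clear opposite direction can be read from them. In RARα-TG, Foxp3+ cells had Zeb2 higher and Tbx21 lower (10.6% and 9.16% of genes tested), and Foxp3- cells had Zeb2 and Irf4 higher and Tbx21, Prdm1, Id2 and Irf8 lower (10.5% and 11.6%). The filter left no other direction to Zeb2 in Foxp3+ cells and to Prdm1 and Irf8 in Foxp3- cells.

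Over the 8 clusters of CD4 T cells, Batf was highest in cluster 5 (Ltf, Dgat2, Myc and Il1rl1; 638 CPM), Id2 in cluster 2 (Serpinb9b, Gzmd and Ifng; 847 CPM), Bhlhe40 in cluster 7 (Ntrk3, Tcf7 and Ccr7; 1492 CPM), and Irf4 and Zeb2 in cluster 6 (Il13; 184 and 239 CPM). Cluster 6 held 34 cells, 29 of them RARα-TG, and cluster 3 (Jcad, Laptm4b and Tff1) held 134, of which 124 were RARα-TG. In the 3 clusters with 20 or more cells of both genotypes, Zeb2 was higher in RARα-TG than in WT on few UMIs, at 51.3 against 16.8 CPM in cluster 1 (4 and 6 UMIs), 42.8 against 0 CPM in cluster 4 (6 and 0 UMIs) and 63.4 against 15.2 CPM in cluster 5 (8 and 3 UMIs), with intervals that overlapped in each. Clonotype size was read in CD4 T cells as well. In WT, Tbx21 was at 58.7 CPM in 1-cell clonotypes and 140.3 CPM in clonotypes of 2 or more cells (1.26 [0.61 to 1.93]), and Id2 at 292 and 602 CPM (1.05 [0.75 to 1.34]). In all, 6 of 8 members were past 1.5-fold higher in WT (12.8% of genes tested), 1 of 8 in RARα-KO (Id2, 1.503 [1.19 to 1.82]; 10.7% of genes tested) and 3 of 9 in RARα-TG (Prdm1, Zeb2 and Zbtb32), where Tbx21 was lower (10.5% of genes tested were higher and 8.54% lower). Zbtb32 was under 0.1 UMIs per cell in 1-cell clonotypes of RARα-TG and had to be higher to be counted.

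Set against each other in WT, CTLs had more Irf8 than CD4 T cells (356 and 54.8 CPM; 2.70 [2.32 to 3.10]), more Zbtb32 (39.4 and 18.3 CPM; 1.11 [0.43 to 1.87]) and more Zeb2 (71.1 and 42.3 CPM; 0.75 [0.30 to 1.23]). They had less Prdm1 (10.2 and 64.4 CPM; -2.66 [-3.20 to -2.13]) and less Batf (107 and 294 CPM; -1.46 [-1.66 to -1.26]). Of genes tested 7.70% were past 1.5-fold higher in CTLs and 17.9% lower. Prdm1 was under 0.1 UMIs per cell in CTLs and Zbtb32 in CD4 T cells, so that the filter left both no other direction. Id2 (0.02 [-0.12 to 0.17]) and Bhlhe40 (-0.03 [-0.16 to 0.10]) were level. In RARα-KO, Prdm1 was at 38.0 CPM in CTLs and 50.6 CPM in CD4 T cells (-0.41 [-0.79 to -0.02]), closer than in WT, and 5 members were past 1.5-fold higher in CTLs and 1 lower (6.20% and 11.5% of genes tested). In RARα-TG, 2 were higher in CTLs and 6 lower (12.8% and 22.4%). The filter likewise fixed the direction of Eomes and Zbtb32 in RARα-KO and of Prdm1 and Irf4 in RARα-TG. T cells that met neither gate were 27.8% of T cells. In them Tbx21 was at 47.8 (WT), 95.9 (RARα-KO) and 15.1 CPM (RARα-TG), and Prdm1 was at 35.7, 38.0 and 63.1 CPM. Of their members tested, Tbx21, Zeb2 and Zbtb32 were higher in RARα-KO and none was lower (4.29% and 5.59% of genes tested), and in RARα-TG Prdm1 and Zeb2 were higher and Tbx21, Irf8 and Bhlhe40 lower (6.65% and 5.27%). Here the filter fixed the direction of Zbtb32 in RARα-KO and of Tbx21 in RARα-TG.

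The relation to Ifng was read in single CTLs. Each CTL was thinned to 1000 UMIs, and CTLs with an Ifng UMI among them were set against those without, 63 and 778 in WT, 126 and 1053 in RARα-KO. In RARα-KO, Irf4 stood at 180.2 CPM with and 63.3 CPM without Ifng (1.51 [1.26 to 1.76]), Irf8 at 383 and 182 CPM (1.07 [0.91 to 1.24]), and Tbx21 at 173 and 92.95 CPM (0.90 [0.65 to 1.14]). Prdm1, Zbtb32, Batf, Zeb2 and Bhlhe40 were also past 1.5-fold higher, with log2 ratios between 0.65 and 0.93. Only Eomes (0.14 [-0.39 to 0.64]) and Id2 (0.16 [0.04 to 0.28]) of the members were within 1.5-fold. These 8 of 10 members higher and none lower stood beside 7.54% and 5.74% of the 6343 genes tested. In WT, Irf4 (61.0 and 36.4 CPM; 0.74 [0.10 to 1.33]) and Zbtb32 (63.2 and 37.4 CPM; 0.76 [0.13 to 1.34]) were past 1.5-fold higher of 8 members that passed the filter, and none was lower (5.76% and 10.6% of genes tested). Tbx21 had a log2 ratio of 0.42 [0.03 to 0.78] in WT. Whether WT and RARα-KO differed in this relation was not tested.

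Ifng+ RARα-KO CTLs had a median of 6586 UMIs and Ifng- ones 5516. Its part in the ratios was not tested. Within RARα-KO cells of cluster 1 (41 and 305 CTLs), 6 members were past 1.5-fold higher with Ifng, Zbtb32 (0.98 [0.65 to 1.29]), Tbx21 (0.88 [0.45 to 1.29]), Irf8 (0.78 [0.49 to 1.06]), Irf4, Zeb2 (0.74 [0.22 to 1.23]) and Eomes (0.69 [-0.10 to 1.42]), and none was lower (10.1% and 11.9% of genes tested). Within cluster 2 (41 and 177 CTLs), Prdm1 (1.497 [0.67 to 2.30]), Irf8 (0.80 [0.50 to 1.097]), Zbtb32 (0.73 [0.26 to 1.19]) and Tbx21 (0.61 [-0.02 to 1.21]) were higher and Eomes lower (-1.45 [-3.13 to -0.14]; 11.1% and 20.5% of genes tested). Tbx21, Irf8 and Zbtb32 were past 1.5-fold higher in both clusters, while Irf4 was so in cluster 1 (0.72 [0.12 to 1.27]) and not in cluster 2 (0.50 [0.06 to 0.92]). Eomes had opposite signs in the 2 clusters, a difference that was not tested. In RARα-TG, 6 CTLs had an Ifng UMI, and of the 5 members that passed the filter Tbx21, Eomes, Zeb2 and Bhlhe40 were past 1.5-fold higher and Id2 lower, on 1 to 7 UMIs in these 6 cells, where 36.8% of genes tested were higher and 15.0% lower. No direction can be read from them.

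For Gzmb, CTLs with the most of its UMIs among 1000 (3 or more in WT, 5 or more in RARα-KO; 234 and 387 cells) were set against those with the fewest (0 in WT, 0 or 1 in RARα-KO; 389 and 515 cells). Zbtb32 had the largest ratio of the members in both genotypes, at 23.6 CPM in Gzmb-low and 59.9 CPM in Gzmb-high WT CTLs (1.35 [0.86 to 1.85]) and 51.6 and 168 CPM in RARα-KO (1.71 [1.44 to 1.97]). Id2 was past 1.5-fold higher in both genotypes too, at 332 and 536 CPM in WT (0.69 [0.55 to 0.83]) and 448 and 722 CPM in RARα-KO (0.69 [0.59 to 0.79]). In RARα-KO, Prdm1 (1.15 [0.75 to 1.56]) and Irf8 (0.66 [0.49 to 0.82]) were past it as well. The counts were 2 of 8 members higher in WT and 4 of 10 in RARα-KO, with none lower, beside 5.06% and 4.29% of genes tested that were higher and 6.83% and 7.28% that were lower. Batf (-0.33 [-0.53 to -0.13] in RARα-KO), Bhlhe40 (-0.10 [-0.20 to 0.01]) and Tbx21 (0.17 [-0.06 to 0.40]) were within 1.5-fold. Gzmb-high cells were deeper, with a median of 7192.5 UMIs against 4877 in WT and 6429 against 4662 in RARα-KO.

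The members past 1.5-fold were not the same for both readouts. Irf4, Tbx21, Zeb2, Batf and Bhlhe40 were past 1.5-fold higher in Ifng+ and not in Gzmb-high RARα-KO CTLs, Id2 was so in Gzmb-high and not in Ifng+ CTLs, and Zbtb32, Prdm1 and Irf8 were so in both. Batf and Bhlhe40 were past it with Ifng in neither cluster 1 nor cluster 2, and with the split at full depth these 2 and Zeb2 were within 1.5-fold, which left 5 members higher. The difference between the readouts was not tested. Over single CTLs thinned to 2000 UMIs, Pearson's r between a member and Gzmb or Ifng lay between -0.049 and 0.22 in WT (828 cells) and RARα-KO (1155 cells), and the highest was Id2 with Gzmb in RARα-KO. Such weak values in sparse counts of 1 library are no finding. In RARα-TG, 27 Gzmb-high and 56 Gzmb-low CTLs had Eomes higher and Batf lower past 1.5-fold on 2 to 12 UMIs each, beside 20.0% and 19.3% of genes tested.

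**Figure D5:**
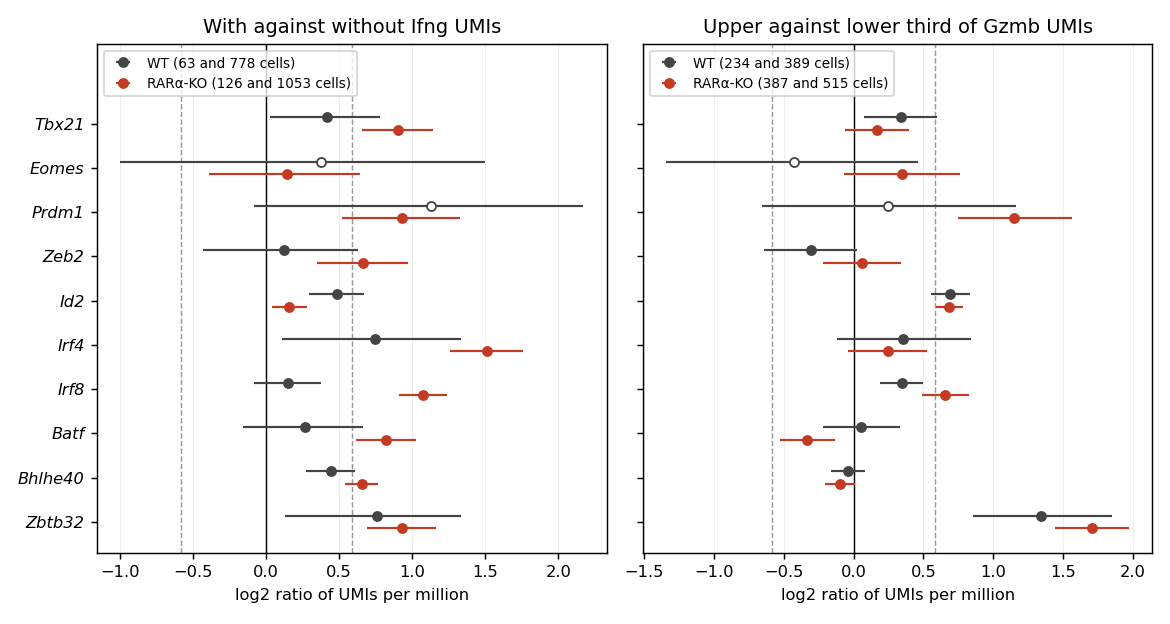
log2 ratios of CPM between CTLs with and without an Ifng UMI (left) and between CTLs with the most and the fewest Gzmb UMIs (right), each cell thinned to 1000 UMIs for the split, in WT and RARα-KO. Bars are 95% counting intervals, dashed lines mark 1.5-fold, and open points did not pass the filter on low values. Irf4 is highest in the left panel in RARα-KO and Zbtb32 in the right panel in both genotypes.

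Partners and opponents of the members, a list of 42 genes that holds AP-1, NFAT, NR4A, STAT and memory factors, were counted in the same way. In RARα-KO against WT CTLs, 5 of 35 tested were past 1.5-fold higher and 1 lower, beside 3.61% and 2.18% of all genes tested. Fos (1.93 [1.52 to 2.37]), Jun (1.62 [1.32 to 1.93]) and Egr1 (1.59 [1.43 to 1.77]), immediate early genes of TCR and stress signals, had the highest log2 ratios, and Ikzf2 the lowest (-1.93 [-2.14 to -1.72]). Fos, on 57 UMIs in the 841 WT CTLs, was under 0.1 UMIs per cell there. It passed through RARα-KO and had to be higher to be counted. The median was 0.05 over this list and 0.02 over all genes. In RARα-TG, 8 of 36 were higher, led by Tcf7 (2.12 [1.77 to 2.47]), which encodes TCF-1, and 7 were lower, among them Rbpj (-1.49 [-1.995 to -1.02]), Hif1a (-1.45 [-1.73 to -1.18]) and Gata3 (-0.99 [-1.81 to -0.26]), where 11.6% of all genes tested were higher and 11.3% lower. Fos and Bcl6, both among the higher ones, were under 0.1 UMIs per cell in WT. They passed through RARα-TG, so that the filter left them no other direction. In large against 1-cell clonotypes of WT, 13 of 36 were lower, led by Tcf7 (-3.05 [-3.52 to -2.595]), Klf2 (-2.19 [-2.50 to -1.88]) and Lef1 (-1.91 [-2.32 to -1.51]), and 4 were higher (8.69% and 10.8% of all genes tested). These 3 are factors of naive and memory cells, and they went opposite to 6 of the members in this split. In Ifng+ against Ifng- RARα-KO CTLs, 11 of 36 were higher and 8 lower (7.54% and 5.74% of all genes tested), with Fos (3.63 [3.29 to 3.98]), Egr2 (2.63 [2.18 to 3.07]) and Egr1 (2.42 [2.28 to 2.57]) at the top and Tcf7, on 3 UMIs in Ifng+ cells (-3.55 [-5.84 to -1.99]), at the bottom.

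Of 33 genes known to depend on the members, 30 were tested in CTLs. In RARα-KO 12 were past 1.5-fold higher and 3 lower, beside 3.61% and 2.18% of all genes tested, with a median log2 ratio of 0.41 against 0.02 over all genes. In RARα-TG 5 were higher and 17 lower, beside 11.6% and 11.3%, with a median of -0.78 against 0.03. The chemokine gene Ccl3 had log2 ratios to WT of 3.26 [3.10 to 3.43] in RARα-KO and, on 2 UMIs, -4.15 [-7.20 to -2.28] in RARα-TG, and for Ccl4 they were 3.25 [3.17 to 3.33] and -3.81 [-4.87 to -2.92]. Gzmc was lower in RARα-KO (-1.03 [-1.11 to -0.96]) and higher in RARα-TG (2.08 [1.99 to 2.17]), and Ccr7 (-1.14 [-1.25 to -1.03]) and Pdcd1 (-0.85 [-0.91 to -0.79]) were lower in RARα-KO. In large against 1-cell clonotypes 17 were higher and 3 lower in WT (10.8% and 8.69% of all genes tested), and 11 were higher and 3 lower in RARα-KO (5.41% and 10.1%).

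Other cell types of the tumors gave a background. In the MC38 or stromal cluster (444 cells, median 26293 UMIs), Tbx21 was at 1.31 CPM, Prdm1 at 1.47, Irf4 at 0.817, Zbtb32 at 1.96, Eomes at 4.08, Irf8 at 4.25 and Batf at 4.66 CPM. The level of Prdm1 and of Zbtb32 in RARα-TG CTLs, on 3 UMIs each, had intervals that reached down to 1.03 CPM, so that neither could be told from this background. Zeb2 (87.0 CPM) and Bhlhe40 (135 CPM) are used by these cells themselves. Free RNA was read from the barcodes of rank 45000 to 90000 by UMIs, taken as empty. Its profile held 18.5 CPM of Prdm1 and 115 of Batf, both above the level of WT CTLs, 29.6 of Zbtb32, 70.3 of Zeb2, 144 of Irf8, 193 of Id2 and 296 CPM of Bhlhe40, all 7 above the level of RARα-TG CTLs. The same profile held 122 CPM of Ifng, where CTLs had 116 (WT), 395 (RARα-KO) and 31.5 CPM (RARα-TG). Of Gzmb it held 1781 CPM, where CTLs had 2880 (WT), 6468 (RARα-KO) and 1532 CPM (RARα-TG). The called cells held 96.4% of all UMIs of genes. The part of free RNA in the levels and in the splits by Ifng and Gzmb was not tested. By shares of cells with a UMI, Eomes was found in 6.90% of WT and 15.2% of RARα-KO CTLs (median 5668 and 5572 UMIs) and in 9.91% of the much deeper MC38 or stromal cells. Irf8 was highest outside T cells, at 1069 CPM in the dendritic cluster led by Ly6d and Siglech, 846 CPM in the cluster led by Il4i1, Il12b and Ccl22 and 417 CPM in the dendritic cluster with Clec9a. CTL cluster 6, at 543 CPM, lay within the range of these clusters.

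Patterns over T cell states were compared over 17 groups of a T cell cluster and a genotype with 50 or more cells, as Pearson's r of log2 CPM with 10 added against 5892 genes. The groups share 1 library and the same 3 samples, and the best of so many genes is high in part by choice, so these values describe and test nothing. The gene most like Zbtb32 was Havcr2 (r = 0.88), an inhibitory receptor gene, and next Mif (r = 0.84). For Irf4 they were Nfkbid (r = 0.88) and Sde2 (r = 0.86), for Batf Lcp2 (r = 0.92) and Stx11 (r = 0.91), and for Eomes Sap30 (r = 0.90) and St3gal6 (r = 0.85). For Prdm1 they were Glcci1 (r = 0.87) and F730043M19Rik (r = 0.85), for Zeb2 Llph (r = 0.90) and Bccip (r = 0.86), and for Id2 Smim3 (r = 0.87) and Fam20a (r = 0.83). For Tbx21 they were Slc25a17 (r = 0.81) and Smpdl3b (r = 0.81), and for Irf8 Tmem163 (r = 0.79) and Ssr2 (r = 0.78). For Bhlhe40 they were Bcl2a1d (r = 0.91) and Bcl2a1b (r = 0.84), near-identical copies whose reads the authors' counting may have split. Among the members, the highest values were Tbx21 with Bhlhe40 (0.73), Irf4 with Batf (0.69), Prdm1 with Batf (0.68) and Irf8 with Zbtb32 (0.68), and the lowest was Eomes with Batf (-0.36).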

How the data were processed

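RNA of 1 pooled 10x library, with hashtags and TCRs, was measured. The authors deposited the raw UMI counts of 32285 genes and 3 hashtags for all 730308 barcodes, made with Cell Ranger (6.1.0 per the submitters' processing notes, version 4 in the matrix header), and the contigs of the TCR library. No column of the deposited tables was left out (0).

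From these counts, 5585 cells were called by the 2 steps of Cell Ranger, rewritten and checked against the 3702 TCR barcodes, all of which they held. Genotypes were read from the hashtags by HTODemux at a quantile of 0.99 (Seurat 5.3.0, R 4.3.3). This left 4925 cells, with 426 doublets between genotypes and 234 cells without a hashtag removed. Doublets within a genotype remained, and no doublet caller was run. Cells were clustered with scanpy 1.11.5 and leidenalg 0.10.2 on 2000 variable genes, 30 components, 15 neighbours and resolution 1, without the members, Gzmb, Ifng and TCR segments. UMIs were summed per genotype and cell group. Levels have exact Poisson intervals and log2 ratios of CPM have exact binomial ones (scipy 1.17.1), at 95%. On simulated counts, such intervals held the true ratio for 95.3% to 96.2% of genes, and a 2-fold change passed 1.5-fold for 100% of 200 changed genes in RARα-KO against WT and 93% in RARα-TG against WT. With 1 sample per genotype no test was run. All 10 members were named. Further genes came from fixed lists, as the 3 highest and 3 lowest past the fold, or were the genes most like a member. A value of the fixed lists is not reported here. Members, lists, the limit of 15 cells for single clonotypes and the plots were chosen with earlier results of these data known.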

Additional observations from a re-analysis of the deposited data

Results flagged for a closer look

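Bhlhe40 and Zeb2 stood on opposite sides of WT in CTLs and CD4 T cells of the same genotype. The log2 ratio of Bhlhe40, RARα-KO to WT, was -0.14 in CTLs against 0.41 in CD4 T cells, and both were within 1.5-fold. The log2 ratio of Zeb2, RARα-TG to WT, was -1.25 in CTLs, on 18 UMIs in RARα-TG, and 1.05 in CD4 T cells, both past 1.5-fold. With cells thinned to 1000 UMIs, the ratio of Zeb2 in CTLs was -0.15, within 1.5-fold. With 1 sample per genotype these differences were not tested.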

How the results depend on the processing

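With 1 sample per genotype, intervals cover counting error and no value shows the spread between mice. RARα-TG CTLs (113 cells) limit every value of that group. Genotype, tumor, hashtag and cell state cannot be told apart. In CTLs, the counts of members past 1.5-fold stayed within 1.5 times of 5 (RARα-KO) and 9 (RARα-TG) under every alternative, among them those chosen after seeing the data (without the heat shock cluster, and without cells holding a marker of another cell type). Over these alternatives the log2 ratio in RARα-KO ran from 1.4 to 1.99 for Prdm1, 1.37 to 1.88 for Zbtb32, 0.93 to 1.24 for Irf4, -0.94 to -0.59 for Irf8 and 0.03 to 1.76 for Eomes. In RARα-TG it ran from -3.18 to -2.002 for Irf8, -2.07 to -1.33 for Id2, -1.91 to -1.48 for Bhlhe40, -1.15 to -0.68 for Tbx21, -2.01 to -0.78 for Irf4, -3.25 to -1.63 for Zbtb32, -1.83 to -0.15 for Zeb2, -1.396 to -0.35 for Batf and -0.48 to 1.92 for Eomes. Zeb2 was within 1.5-fold with thinned cells and Batf with Cd8b1 in the gate. With equal clonotype weights, Tbx21 in RARα-KO turned to 0.021 and Eomes in RARα-TG to -0.48.

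Other counts moved by over 1.5 times, and the cause was not tested apart from the stricter fold. In CD4 T cells, RARα-KO against WT gave 4 members instead of 0 with cells thinned to 1000 UMIs, 1 with equal clonotype weights and 1 with no filter. Between large and 1-cell clonotypes, WT gave 3 instead of 7 at a fold of 2, and RARα-KO gave 9 instead of 3 with thinned cells and 1 at a fold of 2. The Ifng split gave, in WT, 1 instead of 2 both when split at 2000 UMIs and within the largest cluster, and 0 at a fold of 2. In RARα-KO it gave 5 instead of 8 when split at full depth and 2 at a fold of 2, and in RARα-TG 1 instead of 5 at a fold of 2. The Gzmb split gave, in WT, 1 instead of 2 within the largest cluster and 1 at a fold of 2, and in RARα-KO 2 instead of 4 under each of these. In RARα-TG it gave 5 instead of 2 when split at 2000 UMIs, 6 at full depth, and 4 both within the largest cluster and without proliferating clusters. Within the largest WT cluster, Tbx21 turned to -0.29 in the Ifng split and Irf8 to -0.0226 in the Gzmb split. Of the other values, 81 counts and 846 single log2 ratios stayed close to those reported, and 104 single ratios moved without a change of sign. No paired analysis was possible because each genotype is 1 sample.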
